A study of Drosophila melanogaster with 12 samples.

Results

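The response of the larval fat body to a high-sugar diet was described in Drosophila melanogaster larvae labelled InRi, by comparing 3 libraries from 0.7 M sucrose with 3 libraries from 0.15 M sucrose. These 6 of the 12 libraries were chosen by the genotype and sucrose given in their labels, and all 15222 genes of the count table belong to the comparison. Counts were high enough to test 8662 of them. All libraries came from the fat bodies of female wandering larvae of the third instar, reared at 25 °C. Mothers of every group carried UAS-Dcr2 and r4-GAL4, so the driver and the extra Dicer-2 were shared by all groups. In the InRi 0.7 M and InRi 0.15 M groups the fathers carried UAS-InRi (stock 992), a hairpin construct meant to silence InR, the gene of the insulin receptor, by RNA interference. In the control 0.7 M and control 0.15 M groups the fathers were w1118 (stock 60000). The InRi groups therefore rest on 1 RNA interference line, which the driver expresses in the fat body. Whether libraries were pools of larvae, or came from separate cultures, is not given in the labels, so p-values here measure only the spread between these libraries.

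The fat body does the work of liver and adipose tissue in the fly. It turns dietary sugar into fatty acids and triglyceride, stores them with glycogen, breaks the stores down on demand, and secretes most haemolymph proteins. Insulin signalling through InR promotes storage and growth there, and larvae reared on high sugar are a model of fat gain and insulin resistance in which the fat body is a central organ. The comparison shows what high sucrose changes in this tissue when the label says that the insulin receptor has been targeted.

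The InRi 0.7 M libraries held 5803618, 5136224 and 3143289 counts, and the InRi 0.15 M libraries held 6380813, 4654649 and 7114144. Levels below are CPM, counts per 1e+06 counts of a scaled library, listed for replicates 1, 2 and 3 in that order. Fold changes are log2 values of 0.7 M over 0.15 M from edgeR's quasi-likelihood test, with adjusted p over all 8662 genes. Unless control is named, 0.7 M and 0.15 M mean the libraries labelled InRi. The 6 libraries resembled each other, with rank correlations of 0.909 to 0.974 across genes. Control 0.15 M replicate 2 stood apart from all others (rank correlations 0.676 to 0.774). It is not part of the comparison, but the fit takes the spread between replicates from all 12 libraries, so counts are given with and without it.

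InR went against its label. It stood at 109, 163 and 148 CPM on 0.7 M, against 151, 132.5 and 116 CPM on 0.15 M. The groups overlapped (log2 fold change 0.07, SE 0.29, adjusted p = 0.973). All 6 values lay above the 6 control libraries, which ranged between 26 and 61.1 CPM. Reads from the construct itself and reads from the gene cannot be told apart in a count per gene. Dcr-2, whose transgene the driver expresses in every group, was looked up after its values were seen. It held 10030, 15060 and 8937 CPM on 0.7 M, against 12880, 4614 and 10200 CPM on 0.15 M, and these groups overlapped too.

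Fat body identity was clear in all 6 libraries. The summed level of 9 fat body markers was 215000 to 351000 CPM on 0.7 M, against 161000 to 356000 CPM on 0.15 M, and Lsp2, a larval storage protein, was the most abundant gene in each library. Of these markers only Adh was near 0, at 0.242 to 0.534 CPM on 0.7 M, against 0.496 to 0.847 CPM on 0.15 M. Markers of other tissues were present far below those of fat body. Midgut markers summed to 305 to 946 CPM on 0.7 M, against 815 to 1510 CPM on 0.15 M, and salivary gland markers to 137 to 212 CPM, against 153 to 1790 CPM. Muscle markers summed to 1700 to 4000 CPM on 0.7 M, against 3050 to 5450 CPM on 0.15 M. The sums of these 3 lists overlapped between diets, but most members were lower on 0.7 M. Below 0 lay 16 of 20 midgut, 8 of 9 salivary gland and 11 of 12 muscle markers, with medians of -1.006, -3.423 and -0.355. CrebA was the largest salivary member on 0.7 M and the only one above 0, at 132, 128 and 102 CPM, against 101, 70.9 and 78.9 CPM on 0.15 M. Cuticle and epidermis markers were wholly lower on 0.7 M, at 93.8 to 306 CPM, against 421 to 949 CPM on 0.15 M, and so were trachea markers, at 104 to 129 CPM, against 131 to 207 CPM. No member of either list passed with all 12 libraries. Without control 0.15 M replicate 2, 2 of 4 tested cuticle markers fell, Lcp1 and Lcp2 (adjusted p = 0.0055 and 0.0124). In that fit 1 of 5 trachea markers fell, pio (adjusted p = 0.0259), where 2.1% of all genes fell. With only the 6 InRi libraries Lcp1 and Lcp2 fell (adjusted p = 0.0176 and 0.029), and no trachea marker did. In bulk tissue, fewer cells of a type and less RNA per cell cannot be told apart.

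High sucrose raised 88 genes and lowered 21 in the libraries labelled InRi, which is 1.02% and 0.242% of the 8662 tested (1.26% together, adjusted p under 0.05). The rises ran between 0.93 and 7.74 log2 units with a median of 1.99, and the falls between -0.97 and -7.15 with a median of -2.62, the extremes being fitted values of Cp36 and CG3292, which had 1 and 2 counts in their lower group. In all 109 genes the 3 libraries of one diet lay wholly above those of the other. Over all genes tested, 14.7% were wholly higher and 12.2% wholly lower on 0.7 M, and the median change was -0.02. At an unadjusted p under 0.05, 987 genes (11.4%) passed. Without control 0.15 M replicate 2 the same comparison called 594 genes, 408 higher (4.6%) and 186 lower (2.1%), together 6.7% of 8870 tested. With only the 6 InRi libraries fitted it called 343 of 8349 (4.11%), 256 higher (3.07%) and 87 lower (1.04%). Each of these fits called all 109 genes again. Leaving out any 1 of the 12 libraries in turn kept the direction of every call that could be tested, but 102 of the 109 missed the threshold in at least 1 omission, and 7 genes passed without InRi 0.15 M replicate 2. Cyp4e3, CG3348, Lsp1alpha, CG13135, CG32335, Rgk2 and synaptogyrin passed in all 12.

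**Figure D1:**
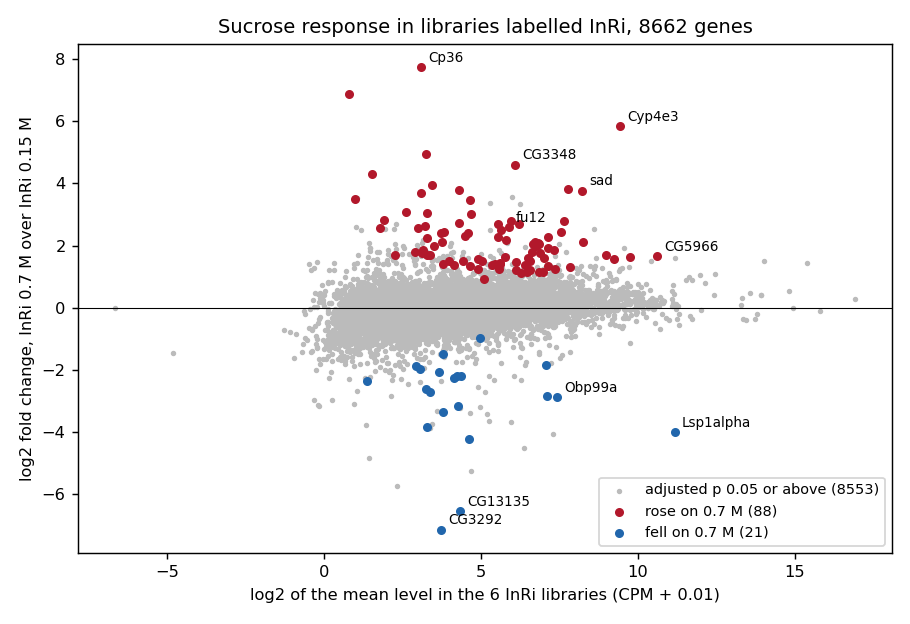
Log2 fold change on 0.7 M over 0.15 M sucrose in libraries labelled InRi (vertical axis) against the log2 mean level in those 6 libraries (CPM + 0.01, horizontal axis), 1 point per tested gene. The 88 rises (red) outnumber the 21 falls (blue), and Lsp1alpha is the most abundant gene that fell.

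Genes of lipid synthesis and storage were among the abundant rises. Men, malic enzyme, which makes NADPH for fatty acid synthesis, held 1858, 1120 and 919 CPM on 0.7 M, against 401, 386 and 469 CPM on 0.15 M (log2 fold change 1.63, SE 0.33, adjusted p = 0.0342). The acyltransferase gene fu12, now named Agpat2, whose enzyme adds the second fatty acid on the way to triglyceride, held 143, 79.5 and 82.3 CPM on 0.7 M, against 19.8, 18.5 and 12.2 CPM on 0.15 M (log2 fold change 2.59, SE 0.45, adjusted p = 0.0170). Gpo-1, the mitochondrial glycerol 3-phosphate dehydrogenase, also rose but is not counted here as a gene of lipid synthesis. It held 143.5, 70.6 and 43.2 CPM on 0.7 M, against 10.7, 20.0 and 14.6 CPM on 0.15 M (log2 fold change 2.51, SE 0.50, adjusted p = 0.0306). In each of these genes replicate 1 was the highest of the 0.7 M libraries, and the diets did not overlap. Gpo-1, like other genes described here outside the lists and the largest changes, was chosen after its values were seen.

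Further enzymes of fatty acid synthesis did not pass with all 12 libraries. On 0.7 M, CG3523, the fatty acid synthase FASN1, held 2960, 1728 and 1424 CPM, against 819, 768 and 550.5 CPM on 0.15 M (log2 fold change 1.52, SE 0.46, adjusted p = 0.174). ACC, acetyl-CoA carboxylase, held 910, 540 and 543 CPM on 0.7 M, against 365, 245.5 and 210 CPM on 0.15 M (log2 fold change 1.28, SE 0.37, adjusted p = 0.146). Values of AcCoAS, which makes acetyl-CoA out of acetate, were 1787, 976 and 849 CPM on 0.7 M, against 409, 275 and 277 CPM on 0.15 M (log2 fold change 1.91, SE 0.44, adjusted p = 0.0596). In these 3 genes the diets did not overlap. Without control 0.15 M replicate 2 all 3 passed, with adjusted p = 0.00913 for CG3523, 0.0246 for ACC and 0.00337 for AcCoAS.

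As groups, 1 of 17 tested genes of fatty acid synthesis rose (Men) and none fell, where 1.02% of all genes rose. The list median was 0.50, against -0.02 for all genes. In the fit without control 0.15 M replicate 2, 6 of the 17 rose and 1 fell, where 4.6% of all genes rose and 2.1% fell. The gene that fell there was bgm, a very long-chain acyl-CoA synthetase, at 9.78, 6.04 and 4.97 CPM on 0.7 M, against 22.2, 16 and 25.4 CPM on 0.15 M. Of 12 tested genes of triglyceride synthesis and lipid droplets, 1 rose (fu12), 11 lay above 0 and the median was 0.80. Without that library 7 of the 12 rose and none fell. They were fu12, Gpdh, Lsd-1, CG4729, Lpin, mdy and Seipin, with log2 fold changes between 0.67 and 2.61 in that fit. Gpdh makes the glycerol 3-phosphate backbone, Lpin and mdy (DGAT1) the last steps to triglyceride, and Lsd-1 is a perilipin on lipid droplets. Lsd-1 held 1013, 1246 and 775 CPM on 0.7 M, against 419, 337 and 508 CPM on 0.15 M, and Gpdh 498, 201 and 176 CPM, against 63.4, 74.5 and 75.2 CPM. With only the 6 InRi libraries, 5 of 17 genes of fatty acid synthesis and 3 of 12 of triglyceride synthesis rose, where 3.07% of all genes rose. In that fit 1 gene of fatty acid synthesis fell.

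**Figure D2:**
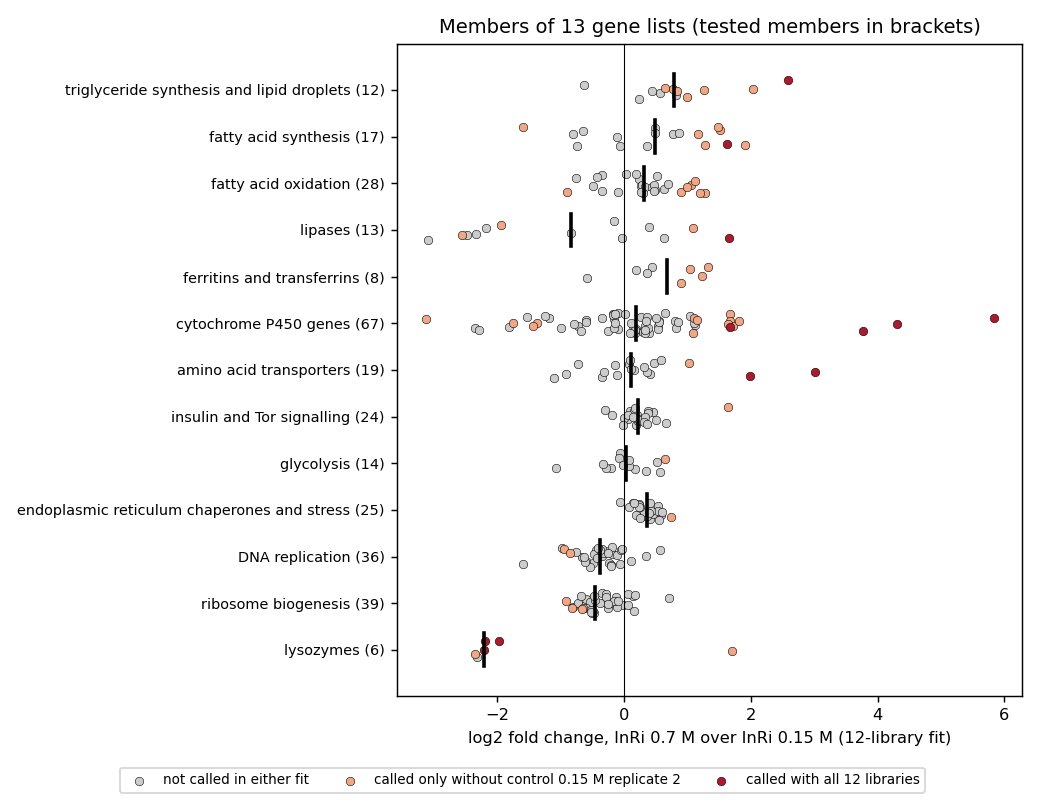
Log2 fold changes on 0.7 M over 0.15 M sucrose in libraries labelled InRi for the tested members of 13 gene lists. Each point is a gene, black bars are list medians, red points passed with all 12 libraries and orange points only without control 0.15 M replicate 2; 7 of 12 triglyceride synthesis genes are coloured.

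Genes known for lipid breakdown were split between rises and values below 0. CG5966, a lipase of the triglyceride lipase family, held 2159, 2992 and 1915 CPM on 0.7 M, against 707, 559 and 981 CPM on 0.15 M (log2 fold change 1.65, SE 0.37, adjusted p = 0.0499). GRHR, now AkhR and chosen after its values were seen, the receptor for adipokinetic hormone, which calls for fat and glycogen breakdown, held 154, 149 and 113 CPM, against 58.4, 39.2 and 50.7 CPM (log2 fold change 1.49, SE 0.24, adjusted p = 0.0114). Brummer, bmm, the main triglyceride lipase of fat body, had 167, 249 and 174 CPM on 0.7 M, against 97.5, 51.7 and 128 CPM on 0.15 M, without passing (adjusted p = 0.148). Of 13 tested lipases 1 rose, where 1.02% of all genes rose, and 9 lay below 0, with a median of -0.84. When control 0.15 M replicate 2 was left out, 2 of the 13 rose (CG5966 and bmm) and 2 fell, where 4.6% of all genes rose and 2.1% fell. The falls there were Lip3, at 4.802, 4.11 and 2.17 CPM on 0.7 M, against 16.2, 13.4 and 13.9 CPM on 0.15 M (adjusted p = 0.00394), and CG6283, at a mean of 8.67 CPM on 0.7 M and 51.1 CPM on 0.15 M (adjusted p = 0.0282). With only the 6 InRi libraries 1 of 12 rose and 2 fell, where 3.07% of all genes rose and 1.04% fell. Of 20 midgut markers 16 lay below 0, but their sums overlapped between diets, and their part in these values was not tested.

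CG12703, chosen after its values were seen, was a well-separated rise. Now named Abcd3, it encodes the peroxisomal membrane transporter PMP70, which brings fatty acyl-CoA into the organelle. It held 154, 178 and 129 CPM on 0.7 M, against 44.6, 42.5 and 45.5 CPM on 0.15 M (log2 fold change 1.80, SE 0.25, adjusted p = 0.00611). CG1774, also chosen after its values were seen, held 140.3, 95.5 and 91.9 CPM on 0.7 M, against 18.8, 14.2 and 14.0 CPM on 0.15 M (log2 fold change 2.80, SE 0.38, adjusted p = 0.00515). None of 28 tested genes of fatty acid oxidation passed, and their median was 0.32. Without control 0.15 M replicate 2, 6 of the 28 rose and 1 fell, where 4.6% of all genes rose and 2.1% fell. The rises included the peroxisomal oxidase genes Acox57D-p and Acox57D-d and whd, the mitochondrial carnitine palmitoyltransferase. On 0.7 M, Acox57D-p held 154, 147 and 121 CPM, against 77.8, 48.6 and 75.5 CPM on 0.15 M. The fall was CG17544, an acyl-CoA oxidase family gene, at 9.07, 7.97 and 9.63 CPM on 0.7 M, against 14.96, 20.65 and 14.0 CPM on 0.15 M (adjusted p = 0.0253 in that fit).

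Further called genes encode enzymes that act on phospholipids or make coenzyme A. The phospholipases A2 iPLA2-VIA and GIIIspla2 rose by 1.14 and 1.34 log2 units (adjusted p = 0.0262 and 0.0315), and the phosphatidic acid phosphatase laza by 1.59 (adjusted p = 0.0285). CG5991, now Pisd, the phosphatidylserine decarboxylase that makes phosphatidylethanolamine, held 36.3, 29.7 and 30.4 CPM on 0.7 M, against 13.8, 12.1 and 8.07 CPM on 0.15 M (log2 fold change 1.5, SE 0.25, adjusted p = 0.0121). Pantothenate kinase, fbl, which starts the synthesis of coenzyme A, rose by 1.3 (SE 0.28, adjusted p = 0.0467). These 5 genes were chosen after their values were seen.

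Cytochrome P450 genes held the strongest single rise among abundant genes. Cyp4e3, a P450 of the CYP4 family, held 1832, 1405 and 822 CPM on 0.7 M, against 28.4, 21 and 21.6 CPM on 0.15 M (log2 fold change 5.84, SE 0.51, adjusted p = 0.000369). It is the called gene with the smallest p. Next among abundant P450 genes was sad (Cyp315a1), a hydroxylase of ecdysone synthesis known mainly for its role in the prothoracic gland. Its levels were 751, 466 and 451 CPM on 0.7 M, against 84.7, 24.6 and 13.1 CPM on 0.15 M (log2 fold change 3.76, SE 0.60, adjusted p = 0.0114). The 0.15 M libraries of sad were spread widely, with replicate 1 the highest. Cyp4aa1 and Cyp4ad1 rose at low levels, to means of 5.55 and 7.39 CPM on 0.7 M, against 0.243 and 2.25 CPM on 0.15 M. Thus 4 of 67 tested P450 genes rose and none fell. Over all genes the shares were 1.02% and 0.242%. Without control 0.15 M replicate 2, 12 of 68 rose and 4 fell, where 4.6% of all genes rose and 2.1% fell. The falls were Cyp304a1, Cyp28d1, Cyp12a4 and dib. The gene dib is also on the ecdysone response list and averaged 0.163 CPM on 0.7 M and 1.565 CPM on 0.15 M (adjusted p = 0.0443 in that fit). Of 24 tested genes on that list none was called with all 12 libraries, and 4 fell and 0 rose in that fit. The P450 median was 0.20 (-0.02 with library totals in place of scaling), with 41 of 67 genes above 0. Exons of sad and Cyp4aa1 overlap genes on the other strand in a later annotation (CG6962 and Strn-Mlck), and the strand used in counting is not given, so part of their counts may belong to the neighbour. The same holds for CG12703, kcc, ClC-c, CG8129, DptB, Nox, fbl, SIK2, Tsp42Ei, Hsp67Ba, LysC, emp, Acer, CG6178, CG1208 and CG6839.

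**Figure D3:**
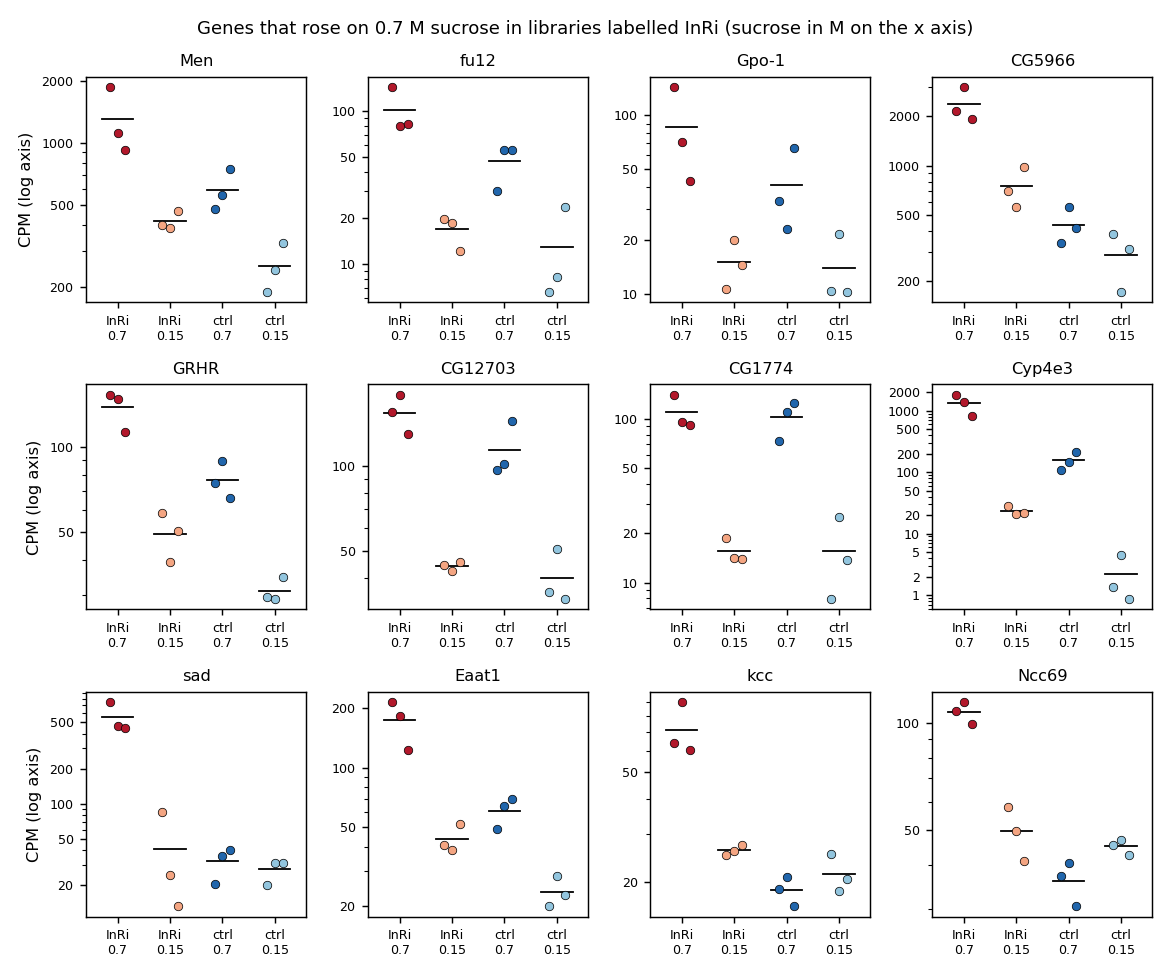
Levels of 12 genes that rose on 0.7 M sucrose in libraries labelled InRi (CPM, log axis with its own range in each panel). Each point is a library, bars are group means (n = 3), and control (ctrl) libraries are shown beside them; Cyp4e3 separates the diets in both genotypes, while sad, kcc and Ncc69 are highest in the InRi 0.7 M libraries.

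Among amino acid transporters, 2 rose. Eaat1, a glutamate transporter, held 216, 184 and 123 CPM on 0.7 M, against 40.9, 38.5 and 51.9 CPM on 0.15 M (log2 fold change 1.99, SE 0.27, adjusted p = 0.00515). CG4991, a transporter of the proton-coupled amino acid family, held 54.4, 45.7 and 36.6 CPM, against 9.17, 3.31 and 4.26 CPM (log2 fold change 3.02, SE 0.43, adjusted p = 0.00632), though its exons overlap CG16700 on the same strand. These were the 2 of 19 tested amino acid transporters that rose, where 1.02% of all genes rose, and none fell (median 0.12, or -0.11 with library totals). The asparagine-synthetase gene (AsnS) rose by 1.78 log2 units (SE 0.29, adjusted p = 0.0121), and CG8129 (Srr), serine racemase, by 2.06 (SE 0.37, adjusted p = 0.0191). Pepck, which makes phosphoenolpyruvate for new glucose, held 8267, 8592 and 5967 CPM, against 3921, 2356 and 4451 CPM, without passing (adjusted p = 0.345).

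Some called genes of ion and solute transport were also chosen after their values were seen, outside any list. The potassium-chloride cotransporter kcc held 63.9, 90.1 and 60.6 CPM on 0.7 M, against 25.1, 25.9 and 27.4 CPM on 0.15 M (log2 fold change 1.45, SE 0.23, adjusted p = 0.0114). Ncc69, a sodium-potassium-chloride cotransporter, held 108, 114.8 and 99.7 CPM, against 58.2, 49.7 and 41.0 CPM (log2 fold change 1.11, SE 0.21, adjusted p = 0.0253). A chloride channel, ClC-c, and the potassium leak channel Ork1 rose by 1.22 and 1.64 log2 units (adjusted p = 0.0347 and 0.0148). Dic1, the mitochondrial dicarboxylate carrier, held 247, 299 and 214 CPM on 0.7 M, against 87.8, 54.4 and 66.9 CPM on 0.15 M (log2 fold change 1.86, SE 0.33, adjusted p = 0.0191). The monocarboxylate transporter family gene out rose by 2.16 (adjusted p = 0.0214). Zip3, now Zip89B, a zinc transporter, fell to 2.67, 3.38 and 3.73 CPM on 0.7 M, against 12.1, 6.77 and 16.9 CPM on 0.15 M (log2 fold change -1.88, SE 0.41, adjusted p = 0.0481). The predicted sugar transporter CG1208 held 127, 88.9 and 92.5 CPM on 0.7 M, against 37.7, 7.44 and 3.20 CPM on 0.15 M. It did not pass (adjusted p = 0.0906), with replicate 1 the highest 0.15 M library, as for sad, and its exons overlap glob3 on the same strand.

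Of 22 tested secreted signals of the fat body, 1 rose and none fell, where 1.02% of all genes rose. CCHa2, a peptide hormone that fat body sends to the insulin-producing cells of the brain, held 292, 196 and 202 CPM on 0.7 M, against 89.9, 107 and 96.2 CPM on 0.15 M (log2 fold change 1.23, SE 0.24, adjusted p = 0.0287). The Activin ligand daw, a target of sugar sensing, had 311, 432 and 301 CPM, against 212, 134 and 239 CPM, without passing (adjusted p = 0.208). Sugar-sensing factors did not pass with all 12 libraries. Mio (Mondo), the fly counterpart of ChREBP and a factor that responds to glucose, held 248, 307 and 174 CPM on 0.7 M, against 122, 83.1 and 122 CPM on 0.15 M (adjusted p = 0.262). Its target sug, a Gli-similar factor, held 125, 173 and 109 CPM, against 53.1, 22.1 and 28.9 CPM (adjusted p = 0.151). Both passed without control 0.15 M replicate 2, with adjusted p = 0.0137 for Mio and 0.00292 for sug, and both were wholly higher on 0.7 M. In that fit 1 of the 11 tested members fell, tobi, an alpha-glucosidase gene that responds to diet, at 2.31, 2.66 and 7.45 CPM on 0.7 M, against 16.65, 11.6 and 9.59 CPM on 0.15 M (adjusted p = 0.0284). Over all genes in that fit 4.6% rose and 2.1% fell. With only the 6 InRi libraries 2 of the 11 rose and none fell, where 3.07% of all genes rose and 1.04% fell.

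None of 24 tested genes of insulin and Tor signalling passed. Their median was 0.22, 20 of the 24 lay above 0, and library totals in place of scaling turned the median to -0.03. Thor, the translation inhibitor 4E-BP and a FOXO target, held 160, 404 and 187 CPM on 0.7 M, against 98.0, 82.6 and 58.8 CPM on 0.15 M (log2 fold change 1.65, SE 0.50, adjusted p = 0.169). Pi3K92E, the catalytic subunit of the kinase below the receptor, differed by 0.67 (adjusted p = 0.295). Of 12 tested FOXO targets none passed and the median was 0.43. Without control 0.15 M replicate 2, 3 of the 12 rose (bmm, Thor and Pepck), where 4.6% of all genes rose. With only the 6 InRi libraries 1 of the 12 rose (Thor, adjusted p = 0.042), where 3.07% of all genes rose.

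None of 14 glycolysis genes, 7 pentose phosphate genes or 20 genes of the tricarboxylic acid cycle passed, with medians of 0.04, 0.44 and 0.30, of which that of glycolysis changed sign with library totals (-0.21). In the fit without control 0.15 M replicate 2, Pfrx of glycolysis rose (adjusted p = 0.0467), as did skap and Nc73EF of the tricarboxylic acid cycle (adjusted p = 0.0142 and 0.0204). Over all genes 4.6% rose in that fit. Ferritin and transferrin genes had a median of 0.67 over 8 genes with none called. Without control 0.15 M replicate 2, 4 of 9 tested rose (Fer2LCH, Fer1HCH, Tsf3 and Irp-1B), where 4.6% of all genes rose. With only the 6 InRi libraries 4 of 8 rose, where 3.07% of all genes rose. Fer2LCH, a ferritin subunit that stores iron, held 556, 638 and 442 CPM on 0.7 M, against 261, 183 and 252 CPM on 0.15 M (log2 fold change 1.23, SE 0.29, adjusted p = 0.0660). Of 25 genes of endoplasmic reticulum chaperones and stress, 24 lay above 0 with a median of 0.37, and none passed. Growth-related lists lay on the other side. DNA replication genes had a median of -0.38 with 33 of 36 below 0, and ribosome biogenesis genes -0.46 with 33 of 39 below 0. No member passed in either list, and without control 0.15 M replicate 2, 2 and 3 of them fell, where 2.1% of all genes fell. With only the 6 InRi libraries none fell in either list. The medians of these last 3 lists kept their sign in every fit tried.

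Among immune genes 1 of 32 tested effectors rose and none fell, where 1.02% of all genes rose. The median of the list was 0.454 in InRi and -1.555 in control. DptB, a diptericin-like antimicrobial peptide, held 8.89, 17.4 and 14.6 CPM on 0.7 M, against 2.54, 2.31 and 1.98 CPM on 0.15 M (log2 fold change 2.56, SE 0.42, adjusted p = 0.0121). Mtk (metchnikowin) and Dpt (diptericin) were also wholly higher on 0.7 M but did not pass with all 12 libraries (adjusted p = 0.0823 and 0.1005). Without control 0.15 M replicate 2 both passed (adjusted p = 0.000484 and 0.0146). In that fit 4 of 33 tested effectors rose and none fell, where 4.6% of all genes rose. With only the 6 InRi libraries 4 of 31 rose and none fell, where 3.07% of all genes rose. Hemocyte markers summed to 2060 to 2660 CPM on 0.7 M, against 1970 to 2450 CPM on 0.15 M, a sum carried mostly by Cg25C and Pxn. Of the 11 markers 7 lay below 0, with a median of -0.82 and none called. Hml, a clotting protein of hemocytes, averaged 60.4 CPM on 0.7 M and 115.7 CPM on 0.15 M, and proPO-A1, a prophenoloxidase, 39.8 CPM on 0.7 M and 134 CPM on 0.15 M, both with overlap between diets. Pxn went the other way, at 686, 711 and 577 CPM on 0.7 M, against 410, 301 and 403 CPM on 0.15 M (adjusted p = 0.312). Of the 11 hemocyte markers 2 were wholly higher and 2 wholly lower on 0.7 M. The part of hemocytes in the immune values was not tested. Of 15 tested heat shock genes 1 fell, where 0.242% of all genes fell. It was Hsp67Ba, at 17.6, 22.7 and 23.6 CPM on 0.7 M, against 39.4, 44.9 and 41.0 CPM on 0.15 M (log2 fold change -0.97, SE 0.20, adjusted p = 0.0383). The NADPH oxidase gene Nox and the stress kinase gene p38c rose by 1.36 and 2.40 log2 units (adjusted p = 0.0467 and 0.0403).

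The most abundant gene that fell was Lsp1alpha, which encodes a subunit of the hexameric storage protein that larvae bank in the haemolymph. It held 149, 285 and 375 CPM on 0.7 M, against 2730, 3633 and 6680 CPM on 0.15 M (log2 fold change -4.01, SE 0.53, adjusted p = 0.00500). The highest 0.7 M library lay far below the lowest 0.15 M library. The sister genes overlapped between diets. Lsp1beta held 46200, 28870 and 20220 CPM on 0.7 M, against 23020, 24650 and 47500 CPM on 0.15 M, and Lsp1gamma and Lsp2 overlapped as well. Of 12 larval serum and other fat body proteins Lsp1alpha was the only one called. Control libraries held 21420 to 25070 CPM of Lsp1alpha on 0.7 M and 17390 to 34970 CPM on 0.15 M, so even the InRi 0.15 M libraries lay below every control library.

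Obp99a, an odorant-binding protein gene, fell to 39.0, 46.9 and 37.0 CPM on 0.7 M, against 241, 258 and 412.5 CPM on 0.15 M (log2 fold change -2.89, SE 0.49, adjusted p = 0.0143). The sorbitol dehydrogenase gene Sodh-1, whose enzyme turns sorbitol into fructose, held 1.6, 1.45 and 5.28 CPM on 0.7 M, against 7.62, 19.7 and 21.6 CPM on 0.15 M (log2 fold change -2.62, SE 0.58, adjusted p = 0.0481). Its paralog Sodh-2 overlapped between diets. Further falls ended near 0. CG13135 held 0.178, 0 and 1.24 CPM on 0.7 M, against 50.0, 46.4 and 23 CPM on 0.15 M (log2 fold change -6.55, SE 0.73, adjusted p = 0.00216). CG3292, now Alp7, an alkaline phosphatase, had 2 counts in all on 0.7 M, against 490 on 0.15 M, a ratio on CPM of 161 (95% counting interval 44.4 to 1340) that leaves out the spread between libraries. CG14850 held 3.38, 2.42 and 6.21 CPM, against 37.0, 36.2 and 31.7 CPM (log2 fold change -3.15, SE 0.62, adjusted p = 0.0287).

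Lysozyme genes were lower on 0.7 M, with 5 of 6 tested members below 0. LysB, LysC and LysE, 3 of 6 tested members, fell by 2.20, 2.19 and 1.97 log2 units (adjusted p = 0.0344, 0.0143 and 0.0351), and the median of the list was -2.20. Over all genes tested 0.242% fell. LysB held 5.34, 4.35 and 12.7 CPM on 0.7 M, against 23.2, 40.7 and 37.5 CPM on 0.15 M. LysX went the other way, at 9.07, 12.8 and 11.8 CPM on 0.7 M, against 3.25, 4.46 and 2.59 CPM on 0.15 M, without passing (adjusted p = 0.0773). LysB, LysC and LysE are close copies in 1 cluster, so reads may be split among them, and LysC is a pseudogene in a later annotation. Lysozymes of this cluster are known as digestive enzymes of the midgut, and LysB and LysE are on the midgut marker list. Of its 20 tested members 16 lay below 0, but 2 fell and 1 rose, where 0.242% of all genes fell and 1.02% rose. The one that rose was Jon99Fi, a Jonah protease, at 13.7, 11.1 and 23.3 CPM on 0.7 M, against 1.27, 3.47 and 2.89 CPM on 0.15 M (adjusted p = 0.0351). The part of midgut tissue in these values was not tested.

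**Figure D4:**
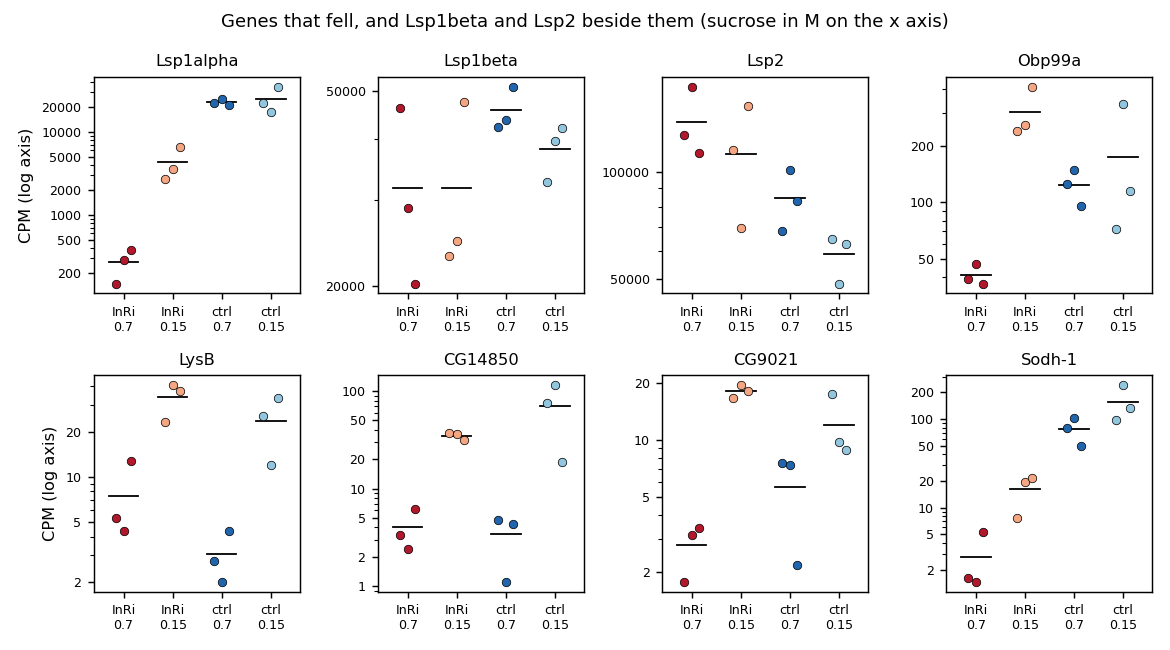
Levels of 6 genes that fell on 0.7 M sucrose in libraries labelled InRi, with Lsp1beta and Lsp2 for comparison (CPM, log axis with its own range in each panel, points are libraries and bars group means, n = 3). Lsp1alpha overlaps between diets in control, while LysB and CG14850 are lower on 0.7 M in both genotypes.

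Some rises were in genes that the control libraries hardly expressed. The neighbouring tetraspanin genes Tsp42Eg, Tsp42Eh and Tsp42Ei, which encode small membrane proteins with 4 membrane spans, rose together. They were the 3 of 24 tested tetraspanins that rose, where 1.02% of all genes rose. Without control 0.15 M replicate 2, 4 of 24 rose, with Tsp42Ef added (adjusted p = 0.0149), where 4.6% of all genes rose. Tsp42Eg held 88.6, 78.3 and 75.8 CPM on 0.7 M, against 23, 7.11 and 7.46 CPM on 0.15 M (log2 fold change 2.68, SE 0.49, adjusted p = 0.0209), and at most 3.14 CPM in any control library. CG16857, now bdl (borderless), an immunoglobulin-family adhesion protein, held 45.5, 47.9 and 44.7 CPM on 0.7 M, against 6.49, 2.148 and 3.66 CPM on 0.15 M (log2 fold change 3.47, SE 0.49, adjusted p = 0.00611). The synaptogyrin gene, known for a synaptic vesicle protein, held 18.1, 20.1 and 14.0 CPM, against 1.41, 2.64 and 2.28 CPM (log2 fold change 3.04, SE 0.37, adjusted p = 0.00390). Nervous system markers summed to 332 to 391 CPM on 0.7 M, against 315 to 406 CPM on 0.15 M. Most of that sum was Syt1, at 266, 347 and 276 CPM, against 280, 208 and 326 CPM. Of 7 tested nervous system markers 6 lay below 0, with a median of -0.263 and none called. CG1077 reached 607, 320 and 303 CPM on 0.7 M, against 40.5, 33.7 and 13.1 CPM on 0.15 M (log2 fold change 3.81, SE 0.63, adjusted p = 0.0121), and its control libraries held at most 6.53 CPM.

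Cp36, wisp and topi, genes known for egg or sperm formation, were called, wisp and topi being chosen after their values were seen. Cp36, which encodes a chorion protein that follicle cells add to the egg shell, had 208 counts on 0.7 M, against 1 on 0.15 M, a ratio on CPM of 316 (95% counting interval 56.1 to 12500). In CPM that is 7.65, 26.1 and 17.7, against 0.141, 0 and 0. The poly(A) polymerase gene wisp, active in oogenesis, held 236, 176 and 149 CPM on 0.7 M, against 63.5, 34.2 and 38.7 CPM on 0.15 M (log2 fold change 2.04, SE 0.44, adjusted p = 0.0433). The testis gene topi held 16.5, 16.4 and 15.2 CPM, against 5.93, 2.81 and 5.94 CPM (log2 fold change 1.71, SE 0.34, adjusted p = 0.0334). Gonad markers summed to 6.94 to 15.5 CPM on 0.7 M, against 6.35 to 8.22 CPM on 0.15 M, with none of the members called, and vas held at most 1.98 CPM in any of the 6 libraries. Oenocyte markers, by contrast, were separated, at 31.1 to 45.6 CPM on 0.7 M, against 16.4 to 18.8 CPM on 0.15 M. Most of that sum was Cyp4g1, a P450 of cuticular hydrocarbon synthesis, at 27.6, 42.1 and 39.4 CPM on 0.7 M, against 18.3, 17 and 15.7 CPM on 0.15 M, without passing (adjusted p = 0.270). Cyp4g1 passed without control 0.15 M replicate 2 (adjusted p = 0.0344) and with only the 6 InRi libraries (adjusted p = 0.0197). Of 4 markers 2 were tested, and CG18609 rose, with 43 counts on 0.7 M and 0 on 0.15 M, which is at least 21.8-fold higher with 3 counts over the group standing in for 0.

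Other large rises named by size were CG14569, CG3348, CG14949, CG15553, CG6074, CG14275 and CG32532, with log2 fold changes between 2.82 and 4.96. CG3348 was the best separated of these, at 196, 114 and 82.6 CPM on 0.7 M, against 4.66, 6.44 and 5.03 CPM on 0.15 M (log2 fold change 4.60, SE 0.46, adjusted p = 0.00101). CG6074 (CAH9), a carbonic anhydrase, held 22.4, 11.4 and 14.0 CPM, against 0.988, 1.49 and 1.22 CPM (log2 fold change 3.68, SE 0.60, adjusted p = 0.0121). Remaining large falls were CG3819, CG32335, CG9672, CG15369, CG9021, the pseudogene CR30029 and CG12115, with log2 fold changes between -4.22 and -2.08. CG9021 was the tightest of these, at 1.78, 3.14 and 3.42 CPM on 0.7 M, against 16.7, 19.3 and 18 CPM on 0.15 M (log2 fold change -2.72, SE 0.40, adjusted p = 0.00768). Exons of CG3348 overlap Hmu on the other strand in a later annotation, and those of CG14569 a transposon-derived gene.

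The same diets were compared in control larvae. Their 6 libraries are not part of the contrast above, but the fit took its spread and scaling from all 12 libraries. The calls are therefore not independent of control, and the counts below are a description. Of the 88 genes that rose in the libraries labelled InRi, 79 had a control log2 fold change above 0, and in 55 the control libraries were wholly higher on 0.7 M, against 8.12% of all genes. Of the 21 that fell, 20 lay below 0 in control and 15 were wholly lower, against 6.2% of all genes. The median control change was 1.1 for the rises and -1.73 for the falls. Across all 8662 genes the changes in the genotypes had a Pearson r of 0.358 and a Spearman rho of 0.291, as a description. Without control 0.15 M replicate 2, 77 of the 88 lay above 0 in control and 19 of the 21 below 0, and the Pearson r was 0.383. Cyp4e3 held 107, 146 and 217 CPM in control on 0.7 M, against 1.36, 4.46 and 0.856 CPM on 0.15 M, so that its log2 fold change was 5.84 in InRi and 6.40 in control. The log2 fold change of CG3348 was 4.60 in InRi and 4.59 in control, and that of CG1774 was 2.80 in InRi and 2.77 in control. CG13135 was near 0 on 0.7 M in control too, at 0.197, 0.443 and 0 CPM, against 26.2, 26.8 and 9.13 CPM on 0.15 M. For Men it was 1.63 in InRi and 1.23 in control, and for fu12 it was 2.59 in InRi and 1.82 in control, with unadjusted p of 0.399 and 0.244 for the difference between genotypes.

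**Figure D5:**
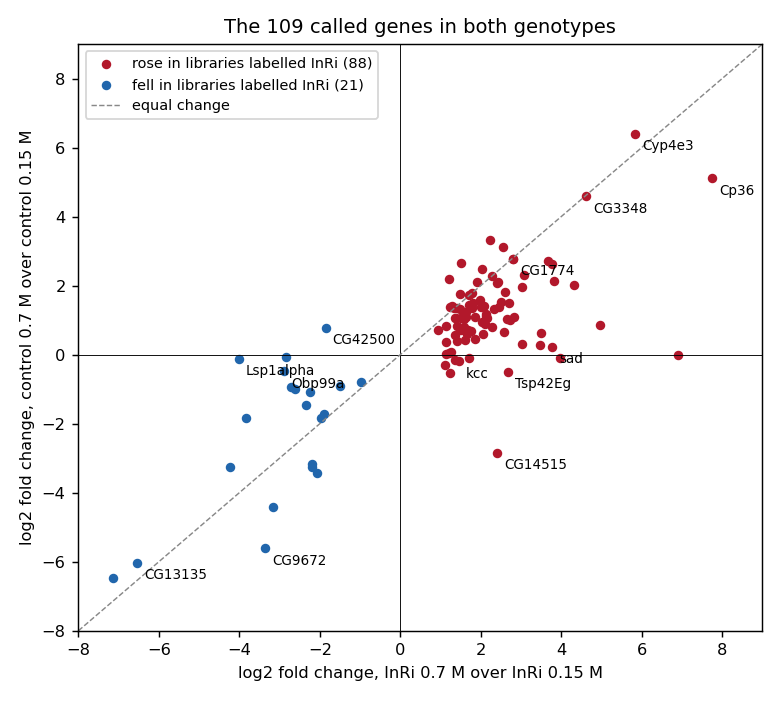
Log2 fold change on 0.7 M over 0.15 M sucrose in control libraries (vertical axis) against that in libraries labelled InRi (horizontal axis) for the 109 called genes. Of 88 rises (red) 79 lie above 0 in control and of 21 falls (blue) 20 lie below 0; Lsp1alpha, sad and kcc lie near 0 in control.

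Whether the response differed between genotypes was tested as an interaction. With edgeR 0 of 8662 genes passed, the smallest adjusted p being 0.339, and 456 (5.26%) had an unadjusted p under 0.05. DESeq2 called 17 and limma voom 4. In simulated counts edgeR found 20% of 4-fold interactions and called 2 unchanged genes, so even large interactions could be missed. DESeq2 found 50% of them but also called 14 unchanged genes, so some of its calls below may be false. The genes with the smallest unadjusted p missed the threshold in edgeR and are given as values. Lsp1alpha had the smallest (interaction -3.89, SE 0.69, unadjusted p = 8.38e-05), with a change of -4.01 in InRi and -0.12 in control. It passed with DESeq2 (adjusted p = 7.38e-07) and with limma voom (adjusted p = 0.0345). CG42500 changed by -1.86 in InRi and 0.78 in control, and CG34305, CG7924 and CG5171 were likewise below 0 in InRi and above 0 in control. Their adjusted p with DESeq2 was 0.000674, 0.00189, 0.0217 and 0.0363 in that order, and CG42500 passed with limma voom (adjusted p = 0.049). In the other direction, CG1208 changed by 2.66 in InRi, while control held 0.197, 0.443 and 0 CPM on 0.7 M, against 8.72, 11.2 and 4.0 CPM on 0.15 M. CG6839 changed by 0.96 in InRi and -3.74 in control. With DESeq2 the adjusted p was 9.09e-05 for CG1208 and 0.000757 for CG6839. For kcc, Ncc69 and SIK2, a salt-inducible kinase, the changes were 1.45, 1.11 and 1.24 in InRi, beside -0.19, -0.31 and -0.54 in control. All 3 genes passed with DESeq2 (adjusted p = 0.00189, 0.00129 and 0.0217), and kcc also with limma voom (adjusted p = 0.049). The steroid hydroxylase gene sad changed by 3.76 in InRi and 0.22 in control (interaction 3.55, SE 0.80, unadjusted p = 0.000701), and its adjusted p with DESeq2 was 0.0159. Obp99a changed by -2.89 in InRi and -0.49 in control (interaction -2.40, SE 0.66, unadjusted p = 0.00302). It passed with limma voom (adjusted p = 0.00454) and in edgeR without control 0.15 M replicate 2 (adjusted p = 0.0117), but not with DESeq2.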

How the data were processed

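Reads per gene were analysed as whole-number counts deposited by the authors, for 15222 genes in 12 libraries. RiboZero removed ribosomal RNA before sequencing on a HiSeq, per the labels' protocols. Cufflinks 1.1.0, TopHat 1.3.2, Bowtie 0.12.7 and the genome build dm3 are named in the submitters' processing notes. Neither the counting tool nor its strand setting is stated in the sources used here. Libraries held 872755 to 7114144 counts, and no column was left unassigned (0).

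Genes were kept by filterByExpr (minimum count 10, minimum total 15). edgeR 4.0.16 scaled by TMM and fitted 1 mean per group to all 12 libraries, adjusting by Benjamini-Hochberg at 0.05. Libraries with the same replicate number were not more alike across diets, so no block was used. Whether they share a culture or batch cannot be decided here. Alternatives covered scaling, filter, test (DESeq2 1.42.0, limma 3.58.1), libraries fitted, threshold and the omission of each library. The run was checked on simulated counts. R 4.3.3, Python 3.11.15 and matplotlib 3.10.9 were used.

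The comparison, its 48 gene lists and 12 marker lists were chosen with earlier results of these data known. Named genes were InR, the 15 largest rises and 15 largest falls among called genes whose diets did not overlap and whose higher group averaged at least 5 CPM, up to 5 members per list by p, and 5 genes per direction of the interaction. Later gene names and exon overlaps come from a release 6 annotation, used for names only. A 95% counting interval covers counting error only. A withheld item is not reported here.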

Additional observations from a re-analysis of the deposited data

How the results depend on the processing

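Every call of the 109 that could be tested kept its direction in every alternative, but the number called moved. It was 110 with DESeq2 size factors, 111 without a filter, 108 with a mean of at least 5 CPM, 43 (26 higher, 17 lower, 60.5% higher against 80.7%) with library totals, which shifted the median of all genes to -0.27, 312 with DESeq2 (233 higher, 79 lower), 614 with limma voom (420 higher, 194 lower), 343 with only the 6 InRi libraries (256 higher, 87 lower) and 168 at adjusted p under 0.1 (130 higher, 38 lower). Omitting 1 library gave 7 to 594 calls, 4 to 408 higher and 3 to 186 lower. The 7 came without InRi 0.15 M replicate 2, the 594 without control 0.15 M replicate 2, 18 without InRi 0.15 M replicate 3, 23, 27 and 54 without InRi 0.7 M replicates 1, 2 and 3, and 72 without InRi 0.15 M replicate 1. Only CG13135, CG32335, CG3348, Cyp4e3, Lsp1alpha, Rgk2 and synaptogyrin were called in all 12 omissions, and 52 of the 109 were lost in at least 6. The replicate block gave 53 calls over 12 libraries (42 higher, 11 lower) and 116 over the 6 InRi libraries. Same-numbered libraries correlated at 0.065, -0.367 and -0.332 around their group means, so they were not more alike. Deviations around a mean of 3 libraries depend on each other, so this cannot decide whether same-numbered libraries share a culture or batch. The interaction called 17 genes with DESeq2 and 4 with limma voom, and 0 to 2 when 1 library was omitted. InR turned to -0.201 with library totals, and with 1 library omitted its log2 fold change was -0.039 to 0.23, below 0 without InRi 0.7 M replicate 2 or InRi 0.15 M replicate 3. The causes were not tested. In the simulated counts edgeR found 17% of 2-fold and 75% of 4-fold diet changes, and 0% of 2-fold and 20% of 4-fold interactions. It called 4 unchanged genes for diet and 2 for the interaction, against 18 and 14 with DESeq2. With 3 libraries per diet, changes of small size and even large interactions could be missed.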

Other observations

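Further genes that rose on 0.7 M sucrose in libraries labelled InRi, chosen after their values were seen, are given here as values. The chitin-binding protein gene obst-J held 243, 229.8 and 233 CPM on 0.7 M, against 63.2, 39.5 and 42.3 CPM on 0.15 M (log2 fold change 2.28, adjusted p = 0.0255). Its level was close among the 0.7 M libraries, and the diets did not overlap. The organic-solute transporter family gene CG8654 held 433, 324 and 200.3 CPM on 0.7 M, against 78.1, 39.7 and 59.4 CPM on 0.15 M (log2 fold change 2.43, adjusted p = 0.0119). Rgk2, a small GTPase gene, held 47.1, 34.8 and 31.4 CPM, against 7.76, 5.78 and 9.14 CPM (log2 fold change 2.32, adjusted p = 0.00285). The scavenger receptor gene emp rose by 1.61 log2 units (adjusted p = 0.0121), and Acer, which encodes a peptidase of the angiotensin-converting enzyme family, by 1.42 (adjusted p = 0.0252). CG6178, an acyl-CoA synthetase family gene, rose by 1.48 (adjusted p = 0.0383), beside 1.75 in control.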
